A study of Mus musculus with 6 samples.

Results

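Bone morphogenetic protein (BMP) ligands, the activin subunit gene Inhba and secreted antagonists of these ligands were examined in the adrenal gland of the mouse. They comprised 9 of 28908 genes named on the array, namely the ligand genes Bmp2, Bmp4, Bmp6, Bmp7 and Inhba and the antagonist genes Grem1, Nog, Chrd and Fst. All 11 probes of the Illumina bead array that carry one of these symbols were taken, out of 45281 probes. Each array was hybridized with RNA of whole adrenals from virgin adult females of the B6.FVB background. The 3 arrays labelled cKO came from adrenal glands of mice with a conditional knockout of Gata6, a zinc finger transcription factor, and the 3 control arrays came from adrenal glands of normal mice. No label names the promoter that drove the deletion, the cells in which it acts or how many animals went into a sample. Nor is it stated that replicates are separate animals, and the p-values then reflect spread among these 6 samples alone, part of which may be technical. In whole-gland RNA, a change in the number of cells that make a transcript and a change in the transcript per cell cannot be told apart.

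BMPs and activins are secreted dimers of the transforming growth factor beta family. They bind pairs of type I and type II receptor kinases, which phosphorylate SMAD proteins that enter the nucleus with Smad4. BMP receptors act mainly through Smad1, Smad5 and Smad9, and activin receptors through Smad2 and Smad3. Noggin, chordin and gremlin bind BMPs outside the cell and keep them from their receptors, and follistatin does so above all with activin. In developing organs ligands and antagonists of this kind are often made by mesenchymal cells next to the epithelium that responds.

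Gata6, the targeted gene, was measured by 1 probe, for which no label or file tells whether it lies in the deleted part. It read 11.99, 12.06 and 12.31 log2 units on the arrays labelled cKO, against 11.80, 11.66 and 11.71 on the control arrays. The signal was therefore not lower on the arrays labelled cKO (log2 difference 0.40, SE 0.10, limma adjusted p = 0.0545), and directions of change are given here by those labels. Markers of the adrenal cortex were present, with 10 of 11 listed genes tested, among them Star, Cyp11a1 and Cyp11b1, while Nr0b1 was detected on 0 arrays. Among 8 kidney and liver markers, Umod, Slc34a1, Kap, Alb, Apoa1 and Ttr were detected on 0 arrays. Between 18314 and 19459 probes were detected per array at a detection p under 0.05.

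Promoter windows were available for 5 of the 9 genes, Bmp4, Bmp6, Inhba, Grem1 and Chrd, from RefSeq (GRCm38.p6). Those of Inhba and Chrd lie within the annotated span of the gene, past its first base, and those of the others directly before it. The 250 bases before the annotated start are printed for Bmp4 and Grem1, the genes whose difference passed the threshold, because the deleted factor binds GATA sites. Capitals mark the 4-letter core GATA on either strand. The Bmp4 window lies at chr14:46390670-46390919 on the minus strand and the Grem1 window at chr2:113758649-113758898 on the minus strand.
Bmp4: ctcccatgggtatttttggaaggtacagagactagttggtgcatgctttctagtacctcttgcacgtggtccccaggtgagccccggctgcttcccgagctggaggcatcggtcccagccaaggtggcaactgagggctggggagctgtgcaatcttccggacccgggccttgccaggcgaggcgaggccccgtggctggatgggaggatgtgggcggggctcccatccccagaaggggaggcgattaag
Grem1: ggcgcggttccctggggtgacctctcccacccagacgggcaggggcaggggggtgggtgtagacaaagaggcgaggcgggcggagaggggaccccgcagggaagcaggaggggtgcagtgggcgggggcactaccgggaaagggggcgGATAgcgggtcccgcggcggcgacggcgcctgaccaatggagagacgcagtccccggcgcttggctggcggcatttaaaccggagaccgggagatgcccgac

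Neither window held, on either strand, the longer GATA motif, which is the core GATA preceded by A or T and followed by A or G, and nor did those of Bmp6, Inhba and Chrd. Of all 32851 promoter windows of this length in the table, 26.5% held such a motif. The core GATA alone occurred once in the Grem1 window, at position -102 from the start, and once in that of Inhba, and in 53.6% of all windows. The Bmp4 window was 63.2% G and C and the Grem1 window 72.0%, against a median of 52.4% over all windows. These letter matches describe the windows and say nothing of binding elsewhere.

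Of the 9 genes, 7 had a probe bright enough to be tested, and the higher-signal probe of a gene stands for it. A probe was tested if it was detected on at least 3 of the 6 arrays. Bmp4 and Grem1 rose in cKO glands and 0 of the 7 genes fell (limma over all 19210 tested probes, adjusted p under 0.05). Over all 13327 tested genes, 6.98% passed, 4.34% upward and 2.64% downward. Values are normalized log2 signals, and differences are cKO minus control. The median difference of the 7 genes was 0.51, or 0.31 with Grem1 at its bound, against -0.01 over all tested genes. Grem1 entered the test only through its signal on the arrays labelled cKO, so this count and this median are descriptions and carry no support of their own. In 4 of the 7 genes, Bmp4, Inhba, Grem1 and Nog, the 3 arrays labelled cKO all lay above the 3 control arrays, as in 14.3% of all tested genes, and in Fst they all lay below, as in 14.7%.

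**Figure D1:**
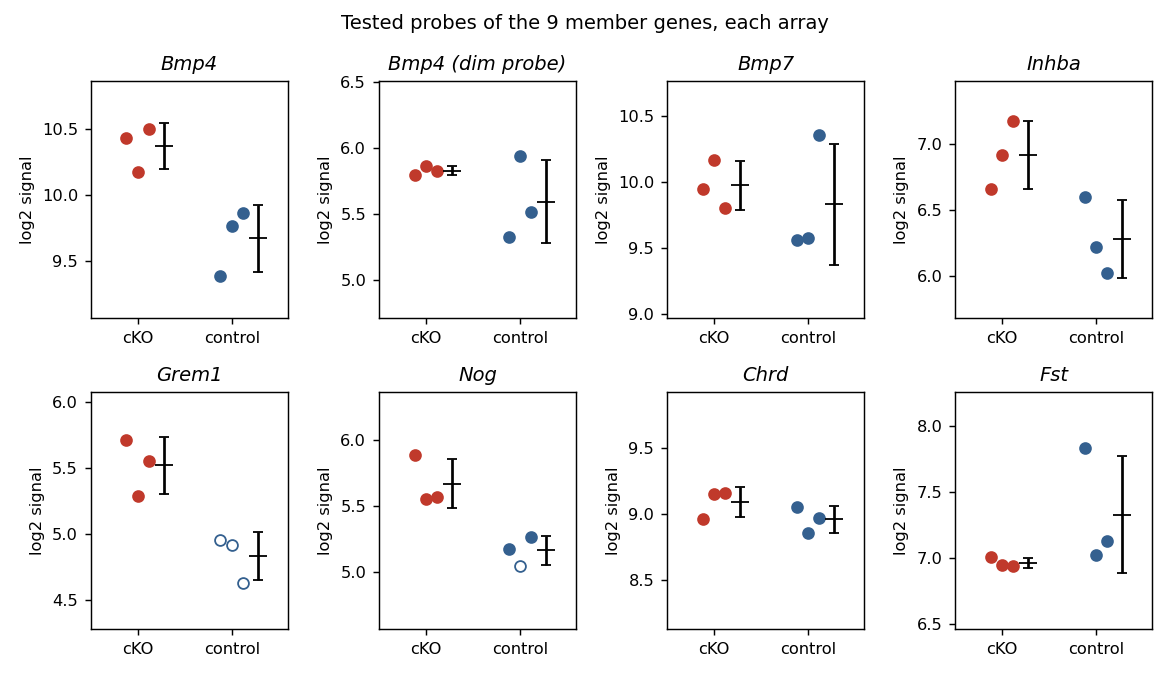
Normalized log2 signal (vertical axis, each panel 1.8 log2 units high) of the 8 tested probes on each array, with cKO in red and control in blue, filled where detected and open where not, and bars for the mean and SD of 3 arrays. The groups are apart in Bmp4, Inhba, Grem1 and Nog and overlap in the dim Bmp4 probe, Bmp7 and Chrd, while the Fst groups are separated by 0.02.

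Bmp4, a BMP ligand with roles in the patterning of many organs, had a higher signal in cKO glands. Its brighter probe read 10.44, 10.18 and 10.50 on cKO replicates 1, 2 and 3, against 9.39, 9.77 and 9.86 on control replicates 1, 2 and 3. The deposited signals behind these values were 1264, 1114 and 1589 on the arrays labelled cKO and 626.3, 827.4 and 987.8 on the control arrays. All 3 arrays labelled cKO lay above the highest control array, by at least 0.31 log2 units. Bmp4 averaged 10.37 ± 0.17 in cKO glands and 9.67 ± 0.25 in control glands (SD, n = 3 each), a log2 difference of 0.70 (SE 0.15, limma adjusted p = 0.0283). This corresponds to a 1.62-fold higher signal, with a 95% interval of 1.29 to 2.05. Among the 19210 tested probes it ranked 785 by p-value. The call was lost without cKO replicate 1 (limma adjusted p = 0.0625), without cKO replicate 3 (0.112), without control replicate 1 (0.0646) and without control replicate 2 (0.0684), at log2 differences of 0.67, 0.64, 0.56 and 0.75.

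The other Bmp4 probe was dim and did not pass. It read 5.80, 5.86 and 5.82 on the arrays labelled cKO, against 5.32, 5.94 and 5.51 on the control arrays, and the groups overlapped because control replicate 2 was the highest of all 6. Its log2 difference was 0.24 (SE 0.18, limma adjusted p = 0.486, 95% interval -0.18 to 0.65). The change read by the brighter probe exceeded that of the dim one by 0.47. A two-sided exact permutation test over the 6 arrays gave p = 0.20, and since 0.10 is the smallest p this design allows, it could not have passed and leaves the difference between the probes undecided. The size of that difference depends on the background step. With a background offset of 50 in place of 16 the dim probe gave 0.14 and the brighter one 0.68. With signals only floored at 16 they gave 0.37 and 0.71. Where in the transcript each probe lies is not given by the files.

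Bmp7, a ligand best known from kidney and eye development, did not pass. It read 9.95, 10.17 and 9.80 on the arrays labelled cKO, against 9.56, 9.58 and 10.36 on the control arrays. Control replicate 3 was the highest array and the other control arrays the lowest, so the groups overlapped. The log2 difference was 0.14 (SE 0.21, limma adjusted p = 0.736, 95% interval -0.34 to 0.63). Without control replicate 3 it was 0.41 (limma adjusted p = 0.133), and without control replicate 1 or 2 it was 0.01. A second Bmp7 probe was detected on 0 arrays.

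Inhba encodes the subunit that forms activin A, and with the Inha product inhibin A. It read 6.66, 6.92 and 7.17 on cKO replicates 1, 2 and 3, against 6.60, 6.22 and 6.02 on control replicates 1, 2 and 3. The groups did not overlap, but cKO replicate 1 exceeded control replicate 1 by only 0.06. Inhba averaged 6.92 ± 0.26 in cKO glands and 6.28 ± 0.29 in control glands (SD, n = 3 each), and the log2 difference of 0.64 (SE 0.20) did not pass (limma adjusted p = 0.106, 95% interval 0.17 to 1.10). Inha, the partner subunit of inhibin, read 7.81, 8.26 and 8.62 on the arrays labelled cKO, against 7.04, 8.37 and 8.91 on the control arrays, with a log2 difference of 0.12 (SE 0.43, limma adjusted p = 0.898).

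Bmp2 and Bmp6 were detected on 0 of the 6 arrays and were not tested. Bmp2, the closest relative of Bmp4, had deposited signals of 3.23, -0.67 and 12.1 on the arrays labelled cKO and of 11.4, 9.70 and 9.22 on the control arrays. Bmp6, known above all as the ligand that controls hepcidin in liver, had signals of 6.29, 3.04 and 2.87 on the arrays labelled cKO and of -4.17, -0.81 and -1.74 on the control arrays. The Bmp6 groups did not overlap, yet all 6 values lay within the background, with detection p-values of 0.247 to 0.630, so no difference can be read from them. A background had been subtracted from the deposited signals, which is why values below 0 occur.

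Grem1, the gene of the BMP antagonist gremlin, was detected on all 3 arrays labelled cKO and on 0 control arrays. Its deposited signals were 36.3, 24.1 and 35.1 on cKO replicates 1, 2 and 3, against 11.2, 10.1 and -1.34 on control replicates 1, 2 and 3. On the normalized log2 scale it read 5.72, 5.29 and 5.56 on the arrays labelled cKO, against 4.95, 4.92 and 4.63 on the control arrays, and the groups were apart by 0.34. Since the control arrays give only a bound, the signal was at least 1.24-fold higher in cKO glands. That fold sets the cKO mean against the control mean after each control value is raised to the lowest detected signal of its array. The fitted log2 difference was 0.69 (SE 0.17, limma adjusted p = 0.0463) and depends on the background offset, being 0.36 (limma adjusted p = 0.0536) with an offset of 50 in place of 16 and 0.89 (limma adjusted p = 0.0700) when signals were only floored at 16. The call was lost when any 1 of the 6 arrays was left out, at limma adjusted p-values from 0.0587, without cKO replicate 2, to 0.144, without cKO replicate 3. Those without cKO replicate 1 and control replicates 1, 2 and 3 were 0.103, 0.0777, 0.0959 and 0.115.

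Nog, the gene of noggin, was also dim. It was detected on all 3 arrays labelled cKO and on 2 of the 3 control arrays, with deposited signals of 42.9, 33.2 and 35.8 in cKO glands and of 17.9, 14.1 and 22.1 in control glands. On the normalized log2 scale it read 5.89, 5.56 and 5.57 on the arrays labelled cKO, against 5.18, 5.05 and 5.27 on the control arrays. The groups were apart by 0.29, and the log2 difference of 0.51 (SE 0.15) did not pass (limma adjusted p = 0.0934, 95% interval 0.15 to 0.86). As for Grem1, the size depends on the background step. It was 0.28 (limma adjusted p = 0.0994) with an offset of 50 and 0.89 (limma adjusted p = 0.0678) with signals floored at 16.

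**Figure D2:**
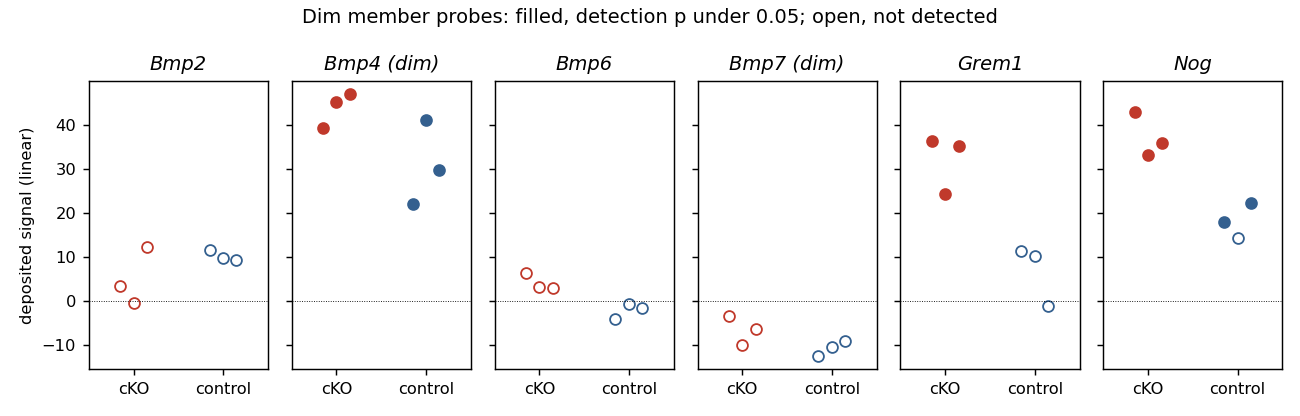
Deposited linear signal (vertical axis) of the 6 dim probes of the 9 genes, with cKO in red and control in blue, filled where the detection p was under 0.05. Grem1 is detected on the 3 arrays labelled cKO alone, Nog on these and 2 control arrays, and Bmp2, Bmp6 and the dim Bmp7 probe on none.

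Chrd and Fst, the remaining antagonist genes, did not pass. Chrd, which encodes chordin, read 8.96, 9.15 and 9.16 on the arrays labelled cKO, against 9.06, 8.85 and 8.97 on the control arrays, and the groups overlapped. Its log2 difference was 0.13 (SE 0.12, limma adjusted p = 0.550), and the 95% interval of -0.13 to 0.39 was the narrowest among the tested probes of the 9 genes. Fst, the gene of the activin-binding protein follistatin, read 7.0, 6.94 and 6.94 on the arrays labelled cKO, against 7.83, 7.02 and 7.13 on the control arrays. The arrays labelled cKO lay close together (SD 0.04, n = 3), and control replicate 1 stood above the other 5 (SD 0.44 over the control arrays, n = 3). The log2 difference of -0.37 (SE 0.22, limma adjusted p = 0.359) shrank to -0.11 without control replicate 1 (limma adjusted p = 0.757). The deposited Fst signals, 109.2, 112.0 and 122.3 in cKO glands and 200.2, 102.6 and 128.1 in control glands, overlapped before normalization.

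**Figure D3:**
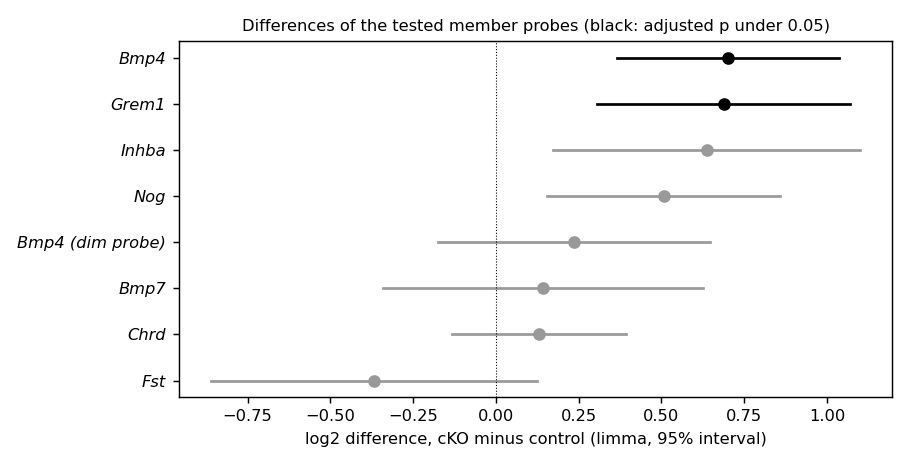
Log2 difference between cKO and control (horizontal axis) of the 8 tested probes with 95% intervals from limma, black where the adjusted p was under 0.05. Bmp4 at 0.70 and Grem1 at 0.69 are black, the intervals of Inhba and Nog also lie above 0, and those of the dim Bmp4 probe, Bmp7, Chrd and Fst cross it.

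Among themselves the tested probes did not vary as one. Over the 6 arrays of both groups Grem1 and Nog had a Pearson r of 0.87, Bmp4 and Nog 0.84, and Bmp4 and Grem1 0.80, whereas Bmp4 and Fst had -0.80 and Chrd and Fst -0.01. These values are descriptions over 6 arrays that share the difference between the groups. The genes whose log2 signals followed the brighter Bmp4 probe most closely, of 11040 genes with a symbol other than a clone name, were the histone acetyltransferase gene Kat7 (Pearson r = 0.995), the major urinary protein gene Mup5 (0.992) and the gamma-synuclein gene Sncg (0.988). Mup5 belongs to a family of near-identical genes, so its probe may read others of them. Those closest to Grem1 were the DNA repair gene Mgmt (0.997), the semaphorin gene Sema7a (0.992) and the secretin gene Sct (0.990). Grem1 was detected on 0 control arrays, so every r given for it rests in part on background readings, and the order of these genes carries no weight. With so few arrays 51 genes reached an r over 0.95 with Bmp4 and 86 with Grem1.

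Beyond the 9 genes, 83 further genes of the pathway were listed, of which 79 were on the array and 44 were tested. Of these 44, 6 rose and 0 fell (limma, adjusted p under 0.05), with a median difference of 0.12. Over all 13327 tested genes, 4.34% rose and 2.64% fell, and the counts by role below stand beside these same shares. With so few genes in each role, a single call describes that gene and not the role.

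Among other ligand genes of the family, 1 of 7 tested rose and 0 fell, with a median of -0.26. It was Gdf1, which in the mouse shares a transcript with Cers1, so its probe may not read Gdf1 alone. Gdf1 read 8.53, 8.72 and 8.91 on the arrays labelled cKO, against 8.18, 7.99 and 8.20 on the control arrays (log2 difference 0.60, SE 0.14, limma adjusted p = 0.0416). The call was lost without cKO replicate 2 (limma adjusted p = 0.115), cKO replicate 3 (0.150) and control replicates 1 (0.0882), 2 (0.126) or 3 (0.0698). Bmp3, Bmp8b, Bmp10, Gdf2, Gdf6, Gdf11, Mstn, Inhbc and Amh were detected on 0 arrays.

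Among other antagonists and modulators, 1 of 9 tested rose and 0 fell, with a median of 0.16. It was Nbl1, the gene of the secreted antagonist DAN, which read 11.09, 11.10 and 11.19 on the arrays labelled cKO, against 10.30, 10.42 and 10.37 on the control arrays. The groups of Nbl1 were far apart relative to their spread (log2 difference 0.77, SE 0.09, limma adjusted p = 0.00267). The call held without each array in turn, with a highest adjusted p of 0.0161. A second Nbl1 probe read 0.45 higher and did not pass (SE 0.12, limma adjusted p = 0.0578).

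Among receptors and co-receptors, 2 of 12 tested rose and 0 fell, with a median of 0.15. Amhr2, the type II receptor of anti-Müllerian hormone, read 8.97, 7.82 and 8.61 on the arrays labelled cKO, against 5.50, 6.42 and 5.22 on the control arrays (log2 difference 2.75, SE 0.36, limma adjusted p = 0.00449). Its other probes passed too, at 1.38 and 0.86. Rgma, a BMP co-receptor, read 6.70, 6.27 and 6.39 on the arrays labelled cKO, against 5.94, 5.32 and 5.32 on the control arrays (0.92, SE 0.21, limma adjusted p = 0.0377). That call was lost without cKO replicate 1 (limma adjusted p = 0.0857), 2 (0.0717) or 3 (0.108) and without control replicate 2 (0.121) or 3 (0.0981).

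Of the SMAD genes and their regulators, 1 of 9 tested rose and 0 fell, with a median of -0.05. Smad3, which carries activin and TGF-beta signals, read 10.73, 10.68 and 10.39 on the arrays labelled cKO, against 10.01, 10.02 and 10.10 on the control arrays (0.56, SE 0.11, limma adjusted p = 0.0245). The Smad3 call was lost without cKO replicate 1 (limma adjusted p = 0.0528), cKO replicate 2 (0.0846) or control replicates 1 (0.0730) or 2 (0.0793), and a second Smad3 probe did not pass (0.33, SE 0.12, limma adjusted p = 0.158). Smad1 and Smad5, which carry BMP signals, differed by 0.11 (SE 0.20) and -0.05 (SE 0.11), with limma adjusted p-values of 0.785 and 0.821.

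Of 15 listed genes known to respond to BMP signalling in various tissues, 8 were tested, 1 rose and 0 fell, with a median of 0.06. It was Hey1, a transcriptional repressor that also responds to Notch, which read 7.77, 7.87 and 7.89 on the arrays labelled cKO, against 7.40, 7.20 and 7.22 on the control arrays (0.57, SE 0.13, limma adjusted p = 0.0412). The Hey1 call was lost when any 1 array was left out, at limma adjusted p-values from 0.0558, without cKO replicate 1, to 0.141, without cKO replicate 3. The other 7 tested genes did not pass and lay on both sides of 0. The transcription factor genes Gata2 and Tbx3 had log2 differences of 0.62 (SE 0.17, limma adjusted p = 0.0700) and 0.29 (SE 0.11, limma adjusted p = 0.148). In both, the arrays labelled cKO all lay above the control arrays, as in 14.3% of all tested genes. The inhibitors of differentiation Id1, Id2 and Id3 are widely used readouts of BMP signalling. Their brightest probes had differences of 0.16 (SE 0.15, limma adjusted p = 0.563), -0.31 (SE 0.18, limma adjusted p = 0.350) and -0.05 (SE 0.15, limma adjusted p = 0.890), with overlapping groups. Other Id2 probes gave -0.34 (limma adjusted p = 0.364) and 0.29 (0.416), so the Id2 probes differed in direction. The groups also overlapped in the homeobox gene Msx1, at -0.20 (SE 0.24, limma adjusted p = 0.664), and in Smad6, an inhibitory SMAD induced by BMPs, at -0.32 (SE 0.17, limma adjusted p = 0.307).

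**Figure D4:**
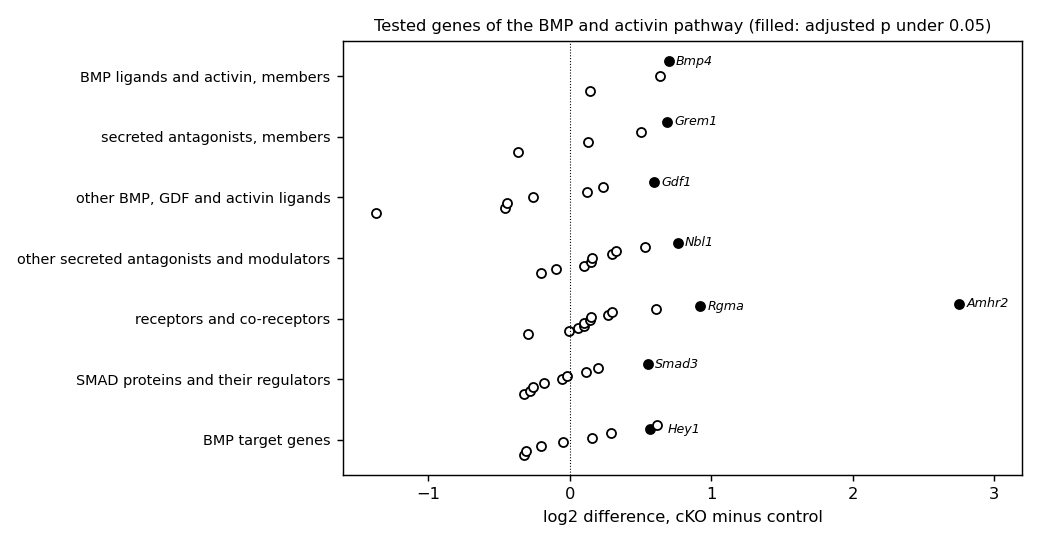
Log2 difference between cKO and control (horizontal axis) of each tested gene of the pathway, by role, filled and named where the adjusted p was under 0.05. The filled points are Bmp4, Grem1, Gdf1, Nbl1, Rgma, Amhr2, Smad3 and Hey1, all above 0.

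Markers of cell types of the gland were read from the same fit, and some lists differed between the groups while others did not. Over all 13327 tested genes, 4.34% passed upward and 2.64% downward. Of 13 tested markers of the capsule and mesenchyme, 9 rose and 0 fell, and their summed normalized signal was 32150 to 42720 on the arrays labelled cKO, against 16370 to 18150 on the control arrays. Gli1, which marks capsular cells, was detected on 0 arrays. Of 9 tested chromaffin markers 2 rose, and the sum was 93690 to 116100 in cKO glands, against 61530 to 78690 in control glands. Of 8 tested fat cell markers 4 rose, and the sum was 55570 to 86420, against 26550 to 32350, with Fabp4 and Retn detected on 0 arrays. Of 7 tested macrophage markers 1 fell, and the sum was 7520 to 8880, against 8012 to 12470, in cKO and control glands. The cortical sum was 96040 to 102500 in cKO glands and 82340 to 114200 in control glands. By the brightest probe of each gene, 1 of 10 tested cortical markers, Mc2r, rose. That call was lost with median scaling over the tested probes (limma adjusted p = 0.12). The brightest Cyp11a1 probe differed by -0.04 (limma adjusted p = 0.855), but another Cyp11a1 probe passed at 1.11 (0.008). Its remaining tested probes gave 0.72 (limma adjusted p = 0.0719) and 0.14 (0.922). Amhr2 rose among 3 tested markers of ovarian somatic cells. None of 9 endothelial, 6 mast cell, 4 erythroid and 2 kidney and liver markers tested passed. The calls of Gli2, Ptch1, Tcf21, Lum, Dcn and Acta2 among the capsule markers, of Adipoq and Cfd among the fat cell markers and of Cd68 held without each array in turn. Those of Col1a1, Pdgfra, Rspo3, Pnmt, Scg2, Cidec and Lpl were each lost without at least 1 array, at highest limma adjusted p-values of 0.0966, 0.0521, 0.165, 0.0915, 0.0789, 0.0750 and 0.0987. Rspo3 (limma adjusted p = 0.0805) and Scg2 (0.106) also lost theirs with median scaling over the tested probes. These checks used the brightest probe of each gene. The other tested Rspo3 probe passed as reported, at 1.05 (limma adjusted p = 0.00645), and that of Pdgfra did not, at 0.32 (0.184). These sums overlapped between the groups for the cortex and the macrophages and did not for the capsule, chromaffin and fat lists, and their part in the differences of Bmp4 and Grem1 was not tested.

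**Figure D5:**
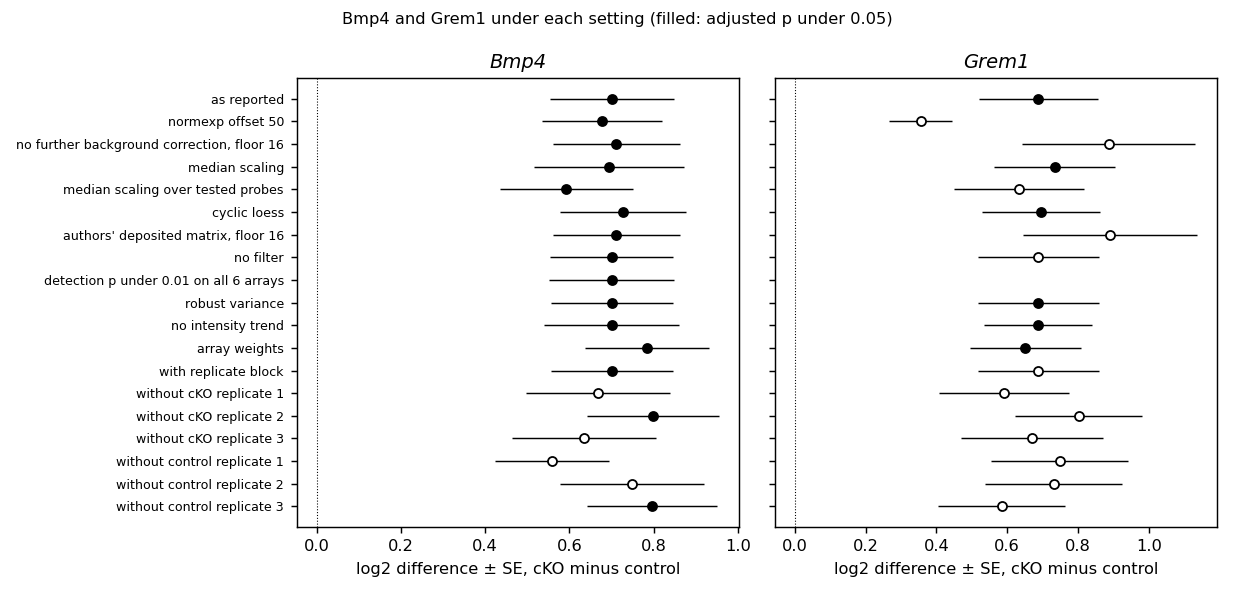
Log2 difference ± SE (horizontal axis) of the brighter Bmp4 probe and of Grem1 as reported and under each other setting, filled where the adjusted p was under 0.05. Every point lies above 0. Bmp4 is open in 4 settings, each of which leaves out 1 array, and Grem1 is open when any array is left out and in 6 further settings.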

How the data were processed

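Signals and detection p-values of 6 Illumina bead arrays were used. The deposited signals are linear intensity values without normalization, per the file headers, and a detection p-value accompanies each. Per the labels' protocols, total RNA was extracted with a Qiagen kit and biotin-labelled cRNA was made with an Ambion kit. Neither scanner software nor the background step is stated in those texts. A deposited matrix of normalized intensity values, made by the authors in an unstated way, served as an alternative.

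Background was corrected with normexp from the detection p-values (offset 16) and log2 values were quantile normalized in limma 3.58.1 (R 4.3.3). Probes with a detection p under 0.05 on at least 3 arrays were tested, 19210 in all, with limma's empirical Bayes variance with an intensity trend, two-sided, and Benjamini-Hochberg adjustment over them. The tested probe with the highest mean over 6 arrays stands for a gene. Older symbols were updated through RefSeq (GRCm38.p6). The fit was checked on simulated data.

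The members and lists were chosen with earlier results of these data known, so list counts carry no test. Of each list other than the members, the genes past the threshold are named. Inha, Smad1, Smad5 and the tested BMP target genes other than Hey1 were named after their values were seen. For each called member the 3 genes with the highest Pearson r are named. Precision is limited by having 3 arrays in each group.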

Additional observations from a re-analysis of the deposited data

How the results depend on the processing

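Under the 18 other settings, 125 of 141 values of the tested member probes kept their direction and their side of the threshold, 16 kept the direction and lost the call, and 0 reversed. As reported, 2 member genes and 1247 probes passed. Only 1 member gene, Bmp4, passed with an offset of 50, with signals floored at 16, with the deposited matrix, without a filter, when each of the 6 arrays had to reach a detection p under 0.01 (where Grem1, Nog and the dim Bmp4 probe were not tested) and with median scaling over the tested probes, and the cause was not tested. The last, chosen after seeing the data, gave 1888 probes, with 40.8% of called genes higher against 62.2% as reported, a median of -0.09 over all genes, and log2 differences of 0.59 for Bmp4 (limma adjusted p = 0.0485) and 0.63 for Grem1 (0.0615). Under it Gdf1, Nbl1, Amhr2, Rgma, Smad3 and Hey1 passed too. Leaving out 1 array gave 0 to 1 member genes and 518 to 1273 probes. Counts of probes were over 1.5 times lower without cKO replicate 2 (645), cKO replicate 3 (518), control replicate 1 (786) or control replicate 2 (591). With the replicate block, 1 member gene (Bmp4, limma adjusted p = 0.0404; Grem1 had 0.0679) and 960 probes passed. Same-numbered arrays deviated together with an r of 0.04, 0.04 and -0.01, and 1 of 3 cKO arrays correlated best with the control of its number, so the numbers were not taken as pairs. The brighter Bmp4 probe passed and the dim one did not (0.24). A slide block was not run, as the headers used here name no slides. Dim probes limit Grem1, Nog, Bmp2 and Bmp6, whose signals lie in or near the background.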

Other observations

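Outside the genes named by rule, Gdf15 and Bmpr2 were picked out after their values had been seen. Gdf15, a distant stress-responsive relative of the BMPs, was found above background on 0 arrays labelled cKO and on all 3 control arrays. It read 5.05, 5.01 and 5.02 on the arrays labelled cKO, against 5.50, 6.29 and 7.42 on the control arrays, and was at least 2.43-fold lower in cKO glands without passing (limma adjusted p = 0.0821). The type II BMP receptor gene Bmpr2 read 10.82, 10.88 and 10.81 on the arrays labelled cKO, against 11.17, 11.19 and 11.03 on the control arrays, and its log2 difference of -0.29 (SE 0.09) did not pass (limma adjusted p = 0.0848).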
